A study of Homo sapiens with 8 samples.

Results

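The 31 genes described here encode the enzymes that make cholesterol, the proteins that regulate them, and enzymes of fatty acid synthesis that answer to the same transcription factors. They were chosen by gene name and make up 31 of the 43317 gene names on a human expression array of 58201 probes. By role, 7 lead from acetyl-CoA to mevalonate and isoprenoids (ACAT2, HMGCS1, MVK, PMVK, MVD, IDI1 and FDPS). A further 11 make squalene and the sterol rings (FDFT1, SQLE, LSS, CYP51A1, TM7SF2, MSMO1, NSDHL, HSD17B7, EBP, SC5D and DHCR7). The regulators and the sterol carrier are 6 (INSIG1, INSIG2, SREBF1, SREBF2, SCAP and STARD4), and 7 make or desaturate fatty acids (FASN, SCD, ACACA, ACLY, ELOVL6, FADS1 and FADS2).

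Cells build cholesterol in the endoplasmic reticulum when sterols run short. The sterol regulatory element-binding proteins (SREBPs, encoded by SREBF1 and SREBF2) are made there as membrane precursors bound to the escort protein SCAP, and INSIG1 and INSIG2 hold that complex back when sterols are plentiful. Once released, the precursors are cleaved in the Golgi, and their active parts switch on the enzymes of sterol and fatty acid synthesis together with INSIG1 itself, usually beside the CCAAT-binding factor NF-Y. Prostate cancer cells are known for a high rate of lipid synthesis through this route.

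The data came from 8 two-colour arrays on 1 slide, where Cy3 marked the RNA of mock-treated cultures and Cy5 that of treated cultures. PC3 cells were given bisamide, for 24 h on 1 array and for 48 h on another, or were transfected with miR-125b-1-3p. C4-2 cells received miR-199-3p, 786-O cells the 5p or the 3p strand of miR-532, and T24 cells the 5p or the 3p strand of miR-140. Bisamide is a small molecule studied as an inhibitor of the heat shock factor pathway, and the other agents are microRNA (miRNA) strands that were transfected. PC3 and C4-2 are prostate cancer lines, 786-O is a renal cell carcinoma line and T24 is a bladder cancer line, so each line stands for a single cell culture model of its cancer. With 1 array to each of the 8 groups and no dye swap, the treatments could not be tested and a treatment cannot be told apart from its array or from a dye effect of a probe.

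The labels of the lines were read against marker genes in the mock channel. KLK3, the prostate-specific antigen, had a raw signal of 13592 in C4-2 and of 21.4 to 22.6, not well above background, on the other 7 arrays. In PC3 the luminal prostate markers were low: FOLH1 was not well above background on any of the 3 arrays (24.2 to 26.6) and KLK2 was at 27.0 to 28.8, against 2338 and 992 in C4-2. HOXB13, a prostate transcription factor, stood at 7455 to 9538 in PC3, 678 in C4-2 and 74.0 and 75.4 in T24. The renal factor PAX8 was at 235 and 239 in 786-O, but was higher in T24, at 390 and 423. PAX2, a further renal marker, was also lower in 786-O, at 124 and 112, than in T24, at 551 and 619. LRP2 was at 53.5 and 56.8 in 786-O and at 215 and 204 in T24. CDH6 was well above background in 786-O alone, at 153 and 164. The renal marker CA9 was not well above background on any array. In T24 the uroplakin UPK1A alone of 7 urothelial markers was well above background, at 30.7 and 37.9.

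The mature sequences of the 6 transfected strands, from RefSeq (GRCh38.p14), are shown for their seeds, bases 2 to 8 in capitals, which pair with complementary bases of target transcripts.
miR-199-3p: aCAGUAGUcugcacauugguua
miR-125b-1-3p: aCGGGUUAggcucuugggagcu
miR-532-5p: cAUGCCUUgaguguaggaccgu
miR-532-3p: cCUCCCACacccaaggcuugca
miR-140-5p: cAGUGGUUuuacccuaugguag
miR-140-3p: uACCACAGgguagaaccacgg
The 6 seeds all differ. The label miR-199-3p does not say whether the a or the b form was used, and the mature sequences of both are the same. The array probe of each member was searched for the 7-base complement of each seed, and 0 of 31 member probes held any of the 6. Of all 58201 probes, 0.402% held ACTACTG (for miR-199-3p) and 0.0361% held TAACCCG (for miR-125b-1-3p). The sites of miR-532 were AAGGCAT for the 5p strand (0.486%) and GTGGGAG for the 3p strand (0.411%). Those of miR-140 were AACCACT for the 5p strand (0.436%) and CTGTGGT for the 3p strand (0.607%). A probe covers only a short stretch of its transcript, and the rest of the transcripts was not analysed here.

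Promoters of 27 of the 31 members, from 250 bases before to 50 after the start of the gene, were held in the RefSeq table, some genes with several starts, and those of the other 4 (ACAT2, FDFT1, SQLE and FASN) were not analysed here. The sterol regulatory element of the form TCACNCCAC, searched on both strands, was in 1 of 27 members (3.7%, SREBF2), against 1.39% of all 27305 genes in the table, and in 1.13% of all 35116 promoters. The CCAAT box, the motif of NF-Y, was found on either strand in 20 of 27 members (74.1%), against 39.7% of genes. By promoter it was in 24 of 37 of the members and in 34.6% of all. The E-box CACGTG was in 4 of 27 members (14.8%) and in 8.77% of genes. None of the 3 motifs shares its letters with another, although in IDI1 and NSDHL a CCAAT and its complement ATTGG overlap. The windows below are on the strand of the gene (GRCh38.p14), with the motif or its complement in capitals, for SREBF2 and for the members with a promoter in the table and a log2 ratio below −0.4 on both bisamide arrays.
SREBF2, chr22:41832963-41832989: gacgcgccaTCACCCCACgcaccgctt
INSIG1, chr7:155297698-155297722: ccggcctcccATTGGttgcggccgc
EBP, chrX:48521728-48521752: gagagtgtctATTGGttgggagcgg
IDI1, chr10:1049222-1049246: cgaaagcgtgATTGGctggcggcgt
FADS2, chr11:61816399-61816423: cgcaggacacCCAATcaccgggcaa
The INSIG1 box lies 170 bases before the start of the gene, and the FADS2 box begins at base 5 after it. EBP and IDI1 hold further boxes, and a match to these letters does not show that a factor binds there.

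All ratios below set treated against mock RNA on the log2 scale after background correction and loess normalization, so a value below 0 is a lower level in treated RNA. A member was read on an array where both of its channels were well above background, which was true of 31 members on both bisamide arrays, on the miR-125b-1-3p array and on both T24 arrays, of 29 with miR-199-3p, 28 with miR-532-5p and 29 with miR-532-3p. A ratio beyond 0.5 in size was counted as a call. Of 241 readings, 25 were calls, 19 lower and 6 higher, and they fell on 13 of the 31 members. Of all genes, 0.4% to 3.84% were called in each direction on an array. INSIG1 was the member called in both directions. The map of the ratios by gene and array shows how the calls were spread.

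**Figure D1:**
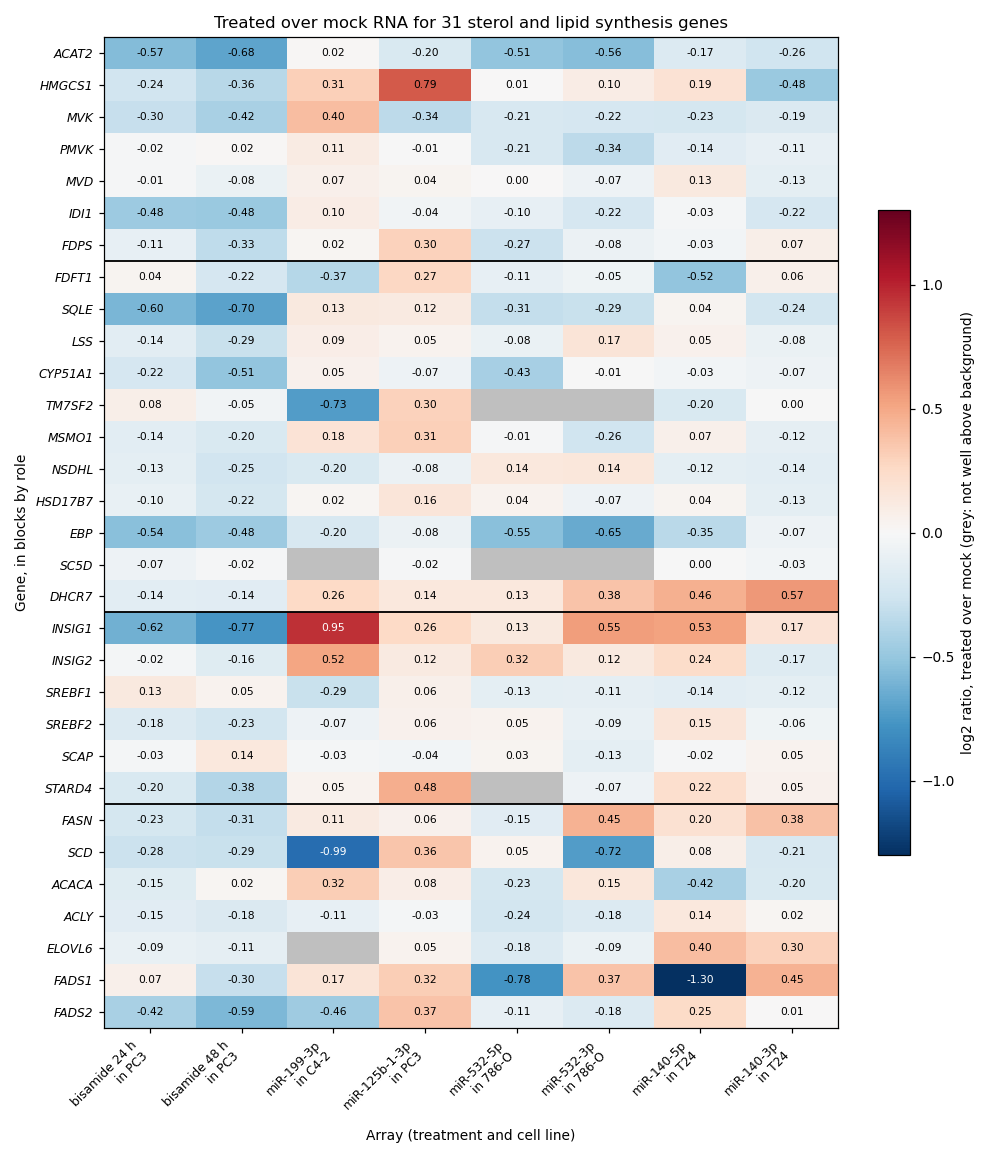
Log2 ratios of treated over mock RNA for the 31 genes (rows, in blocks by role) on the 8 arrays (columns); blue is lower and red is higher in treated RNA, and grey cells were not well above background in both channels. INSIG1 ran from −0.77 with bisamide at 48 h to 0.95 with miR-199-3p, and the lowest cell was FADS1 with miR-140-5p at −1.30.

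With bisamide, most of the pathway read lower in treated PC3 RNA than in the mock RNA of the same array. At 24 h 27 of 31 members (87.1%) had a ratio below 0, against 45.8% of all genes read, and at 48 h 27 of 31, against 45.7%. The median of the members was −0.14 at 24 h and −0.25 at 48 h, with 0.01 over all genes on both arrays. Ratios below −0.5 were found for 4 members at 24 h (12.9%), where 0.4% of 19240 genes lay that low, and for 5 members at 48 h (16.1%), where 0.878% of 19020 did. No member lay above 0.5 on either array, and 1.05% and 0.915% of all genes did. Below 0 on both arrays were 24 of 31 members, against 31.6% of genes. No member passed 1.0 in size on either array.

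INSIG1, which keeps SREBPs inactive and is itself a sensitive target of theirs, was the lowest member on both arrays. Its normalized log2 level was 7.29 in the mock and 6.66 in the treated RNA of the 24 h array, and 8.24 and 7.47 at 48 h, which gave ratios of −0.62 and −0.77. On the miR-125b-1-3p array the same line had 8.27 in the mock and 8.53 in treated RNA. The treated level at 48 h was thus above the mock level at 24 h, and the bisamide and mock levels of INSIG1 overlapped across the 3 arrays.

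In the mevalonate branch, 7 of 7 members were below 0 at 24 h and 6 of 7 at 48 h, with medians of −0.24 and −0.36. ACAT2, the thiolase that joins acetyl-CoA units, was at −0.57 and −0.68, and its treated levels (8.82 and 8.90) lay below all 3 PC3 mocks (9.39, 9.58 and 9.50). The isomerase IDI1 was at −0.48 on both arrays, again below all mocks. MVK, mevalonate kinase, read −0.30 and −0.42, and HMGCS1, which makes HMG-CoA, −0.24 and −0.36. PMVK and MVD, the enzymes after MVK, were close to 0, between −0.08 and 0.02.

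Among the squalene and sterol ring enzymes, 9 of 11 were below 0 at 24 h and 11 of 11 at 48 h, with medians of −0.14 and −0.22. SQLE, squalene epoxidase and a control point of the pathway, was at −0.60 and −0.70, with treated levels of 9.36 and 9.66 and mocks of 9.96, 10.36 and 10.30. EBP, the sterol isomerase, was at −0.54 and −0.48. CYP51A1, the lanosterol demethylase, was at −0.22 and −0.51. FDFT1, squalene synthase, was at 0.04 and −0.22 and TM7SF2, a sterol reductase, at 0.08 and −0.05, so the branch was not uniform.

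The 2 factors read apart against the mocks of their own arrays. SREBF1 had ratios of 0.13 and 0.05 (0.04 and −0.05 on its dimmer probe) and was the highest member at 24 h. SREBF2, at −0.18 and −0.23, lay near the members' median on both arrays. These ratios were smaller in size than the ranges of the 3 PC3 mocks, 0.78 for SREBF1 and 0.38 for SREBF2. Against the mean of those mocks, a comparison chosen after the data were seen, SREBF1 was at −0.351 and 0.374 and SREBF2 at −0.355 and −0.00479. SCAP was at −0.03 and 0.14, the highest at 48 h. INSIG2 read −0.02 and −0.16 and the sterol carrier STARD4 −0.20 and −0.38. Of the fatty acid enzymes, 6 of 7 were below 0 on each array, with medians of −0.15 and −0.29. FADS2, the delta-6 desaturase, was at −0.42 and −0.59, SCD, the delta-9 desaturase, at −0.28 and −0.29 and FASN, fatty acid synthase, at −0.23 and −0.31. FADS1 was at 0.07 and −0.30, and ACACA, the carboxylase that makes malonyl-CoA, at −0.15 and 0.02.

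**Figure D2:**
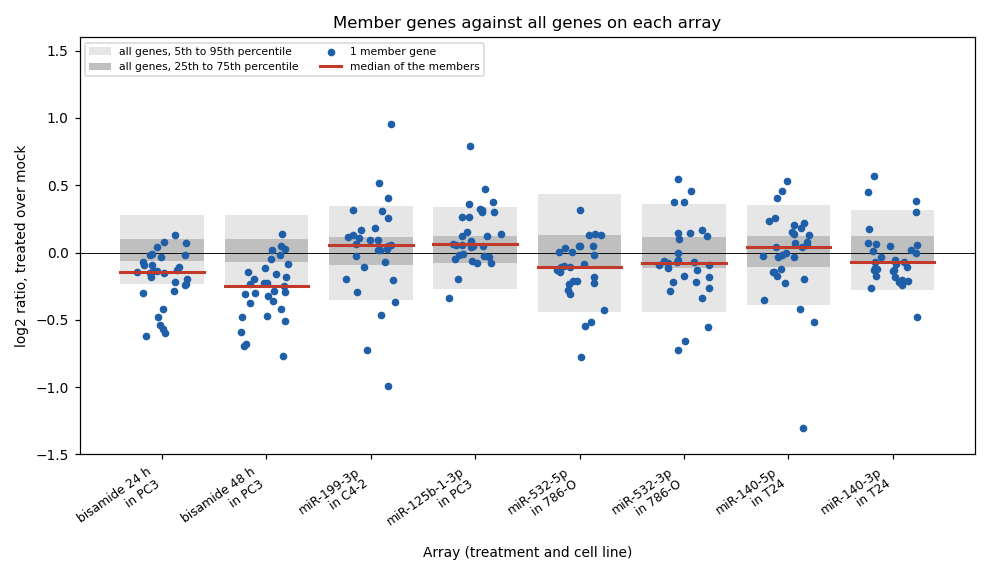
Log2 ratios of the members (blue points) on each array, with the members' median (red line) and the 5th to 95th and 25th to 75th percentiles of all genes read on that array (grey bands). The members' median lay at −0.14 and −0.25 on the bisamide arrays and between −0.11 and 0.06 on the 6 miRNA arrays.

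The 3 PC3 mock channels were read next to each other, since they show how far these genes differ without bisamide. In the mock of the 24 h array 29 of 31 members were lower than in the mock of the 48 h array (median difference −0.25 on the log2 scale), and 29 of 31 were lower than in the mock of the miR-125b-1-3p array (median −0.31). The medians over all genes were within 0.02 of 0. Between the mocks of the 48 h and the miR-125b-1-3p arrays 15 of 31 members were lower in the former. The median SD of a member over the 3 mocks was 0.21, against 0.06 for a gene of the array, and INSIG1 had the widest, at 0.55. The members' median ratios with bisamide were therefore no larger in size than the shifts of the 24 h mock against the other 2, but larger than the shift between those 2, which had a median of 0.000399. The size of the ratio exceeded the range of the 3 mocks for 8 of 31 members at 24 h (25.8%) and for 12 of 31 at 48 h (38.7%). Of all genes this held for 32.7% and 32.8%, so the members' share was below that at 24 h and above it at 48 h. ACAT2, IDI1, SQLE, EBP, MSMO1, ELOVL6 and SCAP were among these members on both arrays, and INSIG1 and FADS2 on neither. SCAP was higher in treated RNA at 48 h, at 0.14.

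Set against the mean of all 3 PC3 mocks, a comparison chosen after the data were seen, 31 of 31 members were lower with bisamide at 24 h (43.1% of genes), with a median of −0.36. At 48 h 24 of 31 were lower (43.3% of genes), with a median of −0.14. The order of the times turned with this choice: against their own mocks 26 of 31 members (83.9%) were lower at 48 h than at 24 h, as were 51.4% of all genes. The treated level lay below all 3 mocks for 27 members at 24 h, against 21.6% of genes, and for 13 at 48 h, against 23.4%. A dye effect that a probe shows on every array cancels when the ratio of the miR-125b-1-3p array is subtracted, and then 28 of 31 members were below 0 at each time, with medians of −0.24 and −0.37 (−0.01 over all genes). Some of that difference is what the miRNA array itself read, such as HMGCS1 at 0.79. Where each array was centred on the median of all its probes in place of loess, the genes read moved to medians of 0.45 and 0.44 and the members to 0.45 and 0.34. Relative to all genes the members were then at −0.00497 and −0.10, and ACAT2, SQLE and EBP at 24 h and ACAT2, SQLE, CYP51A1 and FADS2 at 48 h had ratios above 0.

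**Figure D3:**
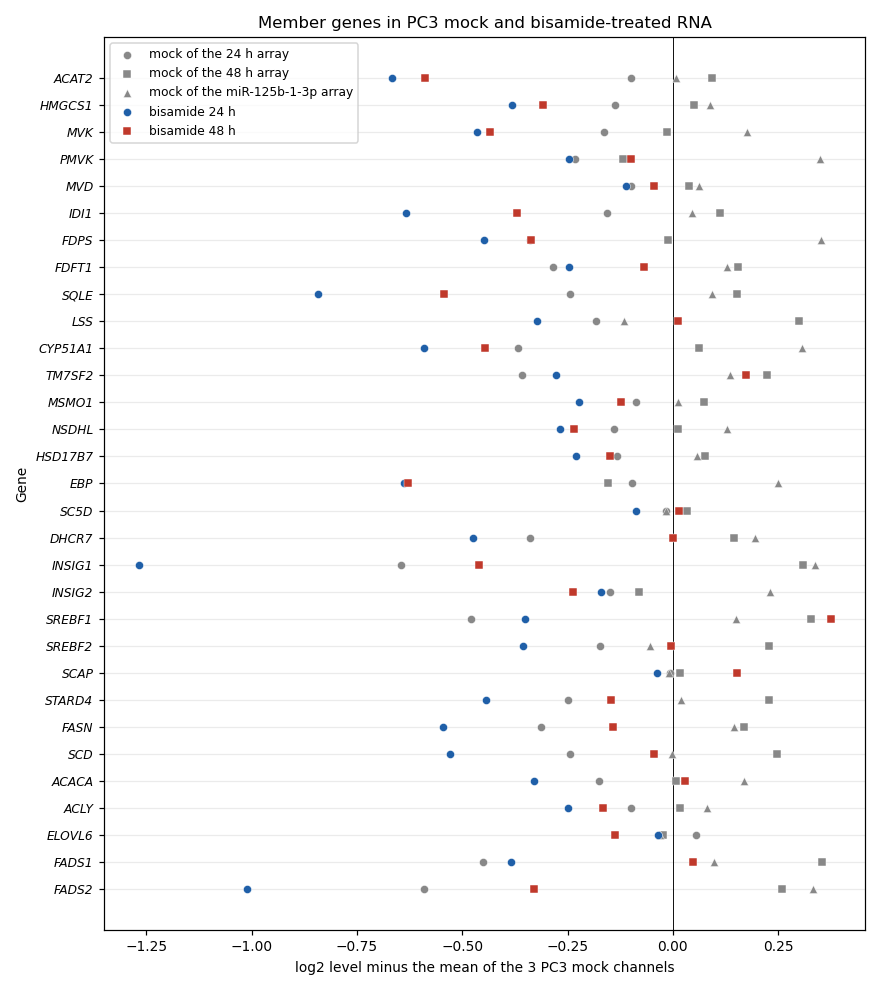
Normalized log2 levels of the 31 genes in the 3 PC3 mock channels (grey) and after bisamide for 24 h (blue) and 48 h (red), each minus the mean of the 3 mocks of that gene. The grey circles, the mock of the 24 h array, lie left of both other mocks for 28 of 31 genes, and the treated points lie left of all grey points for 27 genes at 24 h and 13 at 48 h.

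With miR-199-3p in C4-2 the members did not move as a set. The median was 0.05, and 10 of 29 members were below 0, against 47.3% of genes. Below −0.5 were 2 members, where 2.73% of all genes lay, and above 0.5 were 2, where 1.76% lay. INSIG1 had its highest value here, 0.95, with a raw signal of 362 in mock and 1134 in treated RNA. INSIG2, which has the same hold on SCAP, was at 0.52 on its brighter probe and at −0.04 on its other probe, so the call rests on 1 of 2 probes. The mevalonate branch lay above 0 in 7 of 7 members, led by MVK at 0.40.

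SCD, the desaturase that makes oleate and a target of SREBP, was lowest on this array, at −0.99. TM7SF2 was at −0.73 and FADS2 at −0.46. TM7SF2 had raw signals of 109 in mock and 73.5 in treated RNA, which is dim, and the ratio made by the scanner software was −1.25. INSIG1 and SCD thus stood at opposite ends of the list in the same cells. SC5D was not well above background in C4-2, and ELOVL6 was well above background in treated RNA alone (at least 1.04-fold higher).

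With miR-125b-1-3p in PC3 the members lay slightly above 0, with a median of 0.06 and 10 of 31 below 0, against 45.6% of genes. Above 0.5 was 1 member, where 1.77% of genes lay, and below −0.5 was none, where 0.883% lay. HMGCS1 was that member, at 0.79, from a normalized level of 7.13 in mock to 7.92 in treated RNA, above all 3 PC3 mocks. STARD4 followed at 0.48, FADS2 at 0.37 and SCD at 0.36. MVK was lowest, at −0.34, then ACAT2 at −0.20 and EBP at −0.08. FDPS, which makes farnesyl diphosphate, and MSMO1, a demethylating oxidase, were at 0.30 and 0.31.

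The miR-532 strands in 786-O both gave low values for ACAT2 and EBP. On the miR-532-5p array 18 of 28 members were below 0 (49.9% of genes), with a median of −0.11. Below −0.5 were FADS1 at −0.78, EBP at −0.55 and ACAT2 at −0.51, where 3.67% of all genes lay that low. Above 0.5 was no member, and 3.6% of genes. INSIG2 was highest, at 0.32 (its other probe at −0.04), then NSDHL at 0.14 and DHCR7 at 0.13.

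On the miR-532-3p array 20 of 29 members were below 0 (50% of genes), with a median of −0.08. SCD at −0.72, EBP at −0.65 and ACAT2 at −0.56 were below −0.5, where 3.84% of all genes lay, and INSIG1 at 0.55 was above 0.5, where 1.71% lay. FASN was at 0.45 and DHCR7, the last step to cholesterol, at 0.38. SCD was dim here, with raw signals of 61.3 and 25.4, and its ratio ran from −0.48 to −2.61 between the ways of processing. FADS1 was at 0.37 with the 3p strand and at −0.78 with the 5p strand. The 786-O arrays had nearly the same mock signal, with an SD of 0.0873 between their log2 values, and may share 1 mock RNA. SC5D and TM7SF2 were not well above background in either channel of these arrays, and STARD4 was above it in both channels of the miR-532-3p array but in the mock channel alone of the miR-532-5p array.

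EBP was below 0 on all 8 arrays, from −0.65 to −0.07, and ACAT2 on 7 of 8. A ratio of the same sign on arrays of different agents and lines is also what a dye effect of the probe would give, and without swapped dyes these cannot be told apart. With the median ratio of the other lines subtracted, EBP was at −0.27 and −0.38 in 786-O and ACAT2 at −0.28 and −0.32. INSIG1 behaved otherwise: it was below −0.5 on both bisamide arrays and above 0 on all 6 miRNA arrays (0.95, 0.26, 0.13, 0.55, 0.53 and 0.17, in the order of the map). With the other lines subtracted, INSIG1 was at −1.15 and −1.30 with bisamide. Of the members called on the bisamide arrays, INSIG1 alone stayed below −0.5 there. The subtracted arrays are all miRNA arrays on which INSIG1 was above 0, so some of that size is what they read. Its own ratios of −0.62 and −0.77 were smaller in size than the range of the 3 PC3 mocks, 0.98. After the subtraction EBP read −0.19 and −0.12 with bisamide, ACAT2 −0.31 and −0.42 and SQLE −0.36 and −0.45. CYP51A1 and FADS2 at 48 h were at −0.47 and −0.48. DHCR7, at −0.51 and −0.52, and FASN, at −0.51 at 48 h, were below −0.5 after this subtraction without having been called before it. Their own ratios were −0.14 at both times for DHCR7 and −0.31 at 48 h for FASN. The subtracted arrays read DHCR7 at 0.13 to 0.57 and FASN at −0.15 to 0.45, so some of each difference comes from those arrays.

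With miR-140-5p in T24 the median was 0.04, and 15 of 31 members were below 0 (47.6% of genes). Below −0.5 were 2, where 2.89% of genes lay, and above 0.5 was 1, where 1.74% lay. FADS1, the delta-5 desaturase that completes arachidonate, was the lowest reading of any member on any array, at −1.30, or 2.46-fold lower, and the only member past 1.0. Its probe lies at chr11:61567126-61567185 (GRCh37), and its ratio stayed between −0.72 and −1.53 under every way of processing tried. FDFT1 was at −0.52, ACACA at −0.42 on its brighter probe and 0.08 on the other. INSIG1 was at 0.53, DHCR7 at 0.46 and ELOVL6, a fatty acid elongase, at 0.40 on its brighter probe and 0.04 on the other. FADS2, the neighbour of FADS1 in the pathway, was at 0.25.

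With miR-140-3p in the same line the median was −0.07, with 20 of 31 members below 0 (45.4% of genes). DHCR7 at 0.57 was above 0.5, where 0.998% of genes lay, and no member was below −0.5, where 1.09% lay. FADS1 was at 0.45 and FASN at 0.38. HMGCS1 was lowest, at −0.48, then ACAT2 at −0.26 and SQLE at −0.24. FADS1 therefore read lower with the 5p strand and higher with the 3p strand in T24 and in 786-O alike, 4 single arrays in all, and this difference was not tested. The T24 mocks differed by an SD of 0.0637, so the arrays of that pair may also share a mock RNA.

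The mock channels alone give the levels of the pathway in the 4 lines, with PC3 read on 3 arrays, C4-2 on 1 and 786-O and T24 as the mean of 2 arrays each. The lone lines were assumed to vary like PC3, whose 3 mocks come from 3 arrays. The labels do not say whether those mocks are separate cultures or experiments. In a limma F-test with Benjamini-Hochberg adjustment 19 of 31 members differed between lines, against 57.8% of 22628 genes, so the members differed between lines about as often as any gene. Against PC3, 6 members were lower and 9 higher in C4-2 (20.8% and 24.8% of genes), 10 lower and 3 higher in 786-O (15.5% and 18.3%), and 5 lower and 3 higher in T24 (12.6% and 16.4%). The medians of the members were 0.01, −0.40 and −0.23, with all genes within 0.02 of 0. In such bulk RNA, fewer cells that express a gene and less RNA per cell cannot be told apart.

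By role, the regulators and the fatty acid enzymes had the higher median differences in C4-2, which was read on 1 array. Of all genes, 24.8% were higher and 20.8% lower in C4-2, and the roles were not compared by a test. Of the 6 regulators, 3 were higher there and none lower, with a median difference of 1.13, and of the 7 fatty acid enzymes 4 were higher and 1 lower, with a median of 0.99. The mevalonate branch had 2 lower and none higher, and the sterol ring enzymes 3 lower and 2 higher. In 786-O the sterol ring enzymes had 5 lower and 1 higher, and of all genes 15.5% were lower and 18.3% higher there.

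FADS2 had the widest range. Its log2 mock level was 10.89 ± 0.49 (SD, n = 3) in PC3, 11.66 in C4-2, 9.20 in 786-O and 6.72 in T24, and T24 differed from PC3 by −4.17 ± 0.42 (SE; limma adjusted p = 0.00893). C4-2 and 786-O were not called against PC3 (limma adjusted p = 0.216 and 0.0519). FADS2 was still well above background in T24.

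SREBF1 was at 9.71 ± 0.41 in PC3, 11.91 in C4-2, 8.74 in 786-O and 10.35 in T24. C4-2 was higher than PC3 by 2.20 ± 0.34 (limma adjusted p = 0.0136), and 786-O and T24 were not called (adjusted p = 0.111 and 0.261). SREBF1 has a further, dimmer probe, and with the mean over both the difference was 1.18. SREBF2 was also higher in C4-2, by 1.30 ± 0.17 (adjusted p = 0.00899).

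SCD was at 7.80 ± 0.24 in PC3, 9.15 in C4-2, 6.90 in 786-O and 6.26 in T24. C4-2 was higher by 1.34 ± 0.21 (limma adjusted p = 0.0129), and 786-O and T24 were lower, with differences of −0.90 and −1.54 (adjusted p = 0.0428 and 0.0151). FASN had the same order for C4-2, PC3 and the other 2 lines, at 10.14, 9.16 ± 0.26, 8.10 in 786-O and 8.18 in T24 (limma adjusted p = 0.0344 for C4-2, 0.0374 for 786-O and 0.0502 for T24, each against PC3). The 786-O and T24 levels were not compared with each other by a test. ACACA was at 11.13 in C4-2, 9.72 ± 0.15 in PC3, 9.64 in T24 and 8.92 in 786-O, with adjusted p = 0.00457 for C4-2, 0.71 for T24 and 0.0224 for 786-O, each against PC3 in limma. These 3 enzymes make and desaturate palmitate, and C4-2 held the highest level of each.

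SQLE ran the other way in the prostate lines. It was at 9.90 ± 0.21 in PC3, 9.50 in 786-O, 8.31 in T24 and 7.36 in C4-2, which differed from PC3 by −2.55 ± 0.18 (limma adjusted p = 0.00246). FDFT1, the enzyme just before SQLE, was higher in C4-2 by 2.04 ± 0.20 (adjusted p = 0.00485). The enzymes before and after squalene thus differed between PC3 and C4-2 in opposite directions.

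Of the other members called, ACLY, MSMO1 and INSIG2 were highest in C4-2, ELOVL6 in 786-O (1.59 above PC3), MVD and ACAT2 in T24, and MVK, LSS, NSDHL and DHCR7 in PC3. DHCR7 was lower than in PC3 in 786-O and T24, with differences of −1.85 and −1.49. TM7SF2, highest in C4-2, was not well above background in 786-O and was at least 2.06-fold lower there than in PC3. ELOVL6 was not well above background in C4-2, where it was at least 1.15-fold lower, although a scaling to the 75th percentile put it level with PC3, at a difference of 0.01. SC5D was not well above background in C4-2 and 786-O and was not called. INSIG1 had a wide range, from 9.28 in C4-2 to 6.43 in T24, but the spread between the PC3 mocks (7.06, 7.97 and 8.04) was wide as well and it was not called (adjusted p = 0.0592). IDI1 had the narrowest range, 0.09.

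The calls depend on single PC3 mocks. Without the mock of the 48 h array, 13 members were called in the F-test (36.3% of genes) and 1 member lower and 1 higher in 786-O (7.3% and 9.88% of genes). Without that of the miR-125b-1-3p array 6 were lower in 786-O (19% of genes), and without that of the 24 h array 10 were lower in T24 (6.91% of genes). Where the arrays were scaled to their 75th percentile, the median of all genes moved to 0.19 in C4-2 and 0.14 in 786-O. Under that scaling 19 members were lower in 786-O, where the share of all genes lower there rose from 15.5% to 27.3%, and ACLY in 786-O turned from 0.61 to −0.06.

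**Figure D4:**
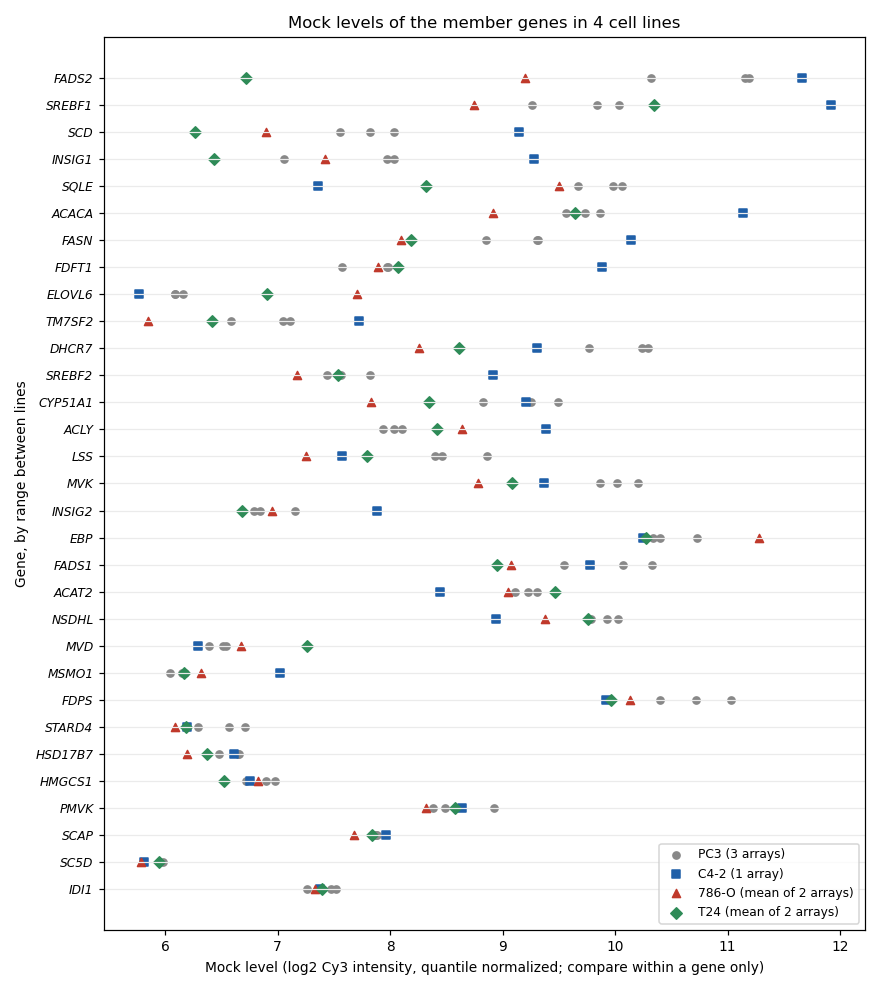
Mock levels of the 31 genes on the log2 scale in PC3 (grey, 3 arrays), C4-2 (blue), 786-O (red) and T24 (green), with genes ordered by the range between lines. Levels are to be compared within a gene only, since each has its own probe; FADS2 spans 6.72 to 11.66, and IDI1 lies within 0.09 across the line means.

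Genes around the pathway that are not members were read from 6 further lists of 72 genes, 71 of them on the array (isoprenoid branch, SREBP processing, other SREBP targets, liver X receptors and sterol efflux, sterol transport and esters, other fatty acid enzymes). With bisamide, 0 of 67 of them were below −0.5 at 24 h and 0 of 66 at 48 h, with medians of −0.02 and −0.03. Of all genes, 0.4% and 0.878% lay that low, so 0 in lists of this size is close to the share of all genes. Below 0 were 52.2% and 54.5% of them, against 45.8% and 45.7% of all genes. Above 0.5, where 1.05% and 0.915% of all genes lay, was 1 of them at 24 h and none at 48 h. It was ACSS2, an acetyl-CoA synthetase and SREBP target, named after its values were seen, at 0.59 and 0.41. The list of 15 other SREBP targets had medians of −0.07 and −0.06. Below 0 were 10 of 15 at each time, against 45.8% and 45.7% of all genes. The machinery that cleaves and degrades the SREBP complex had medians of 0.05 and −0.03. On the miRNA arrays the 6 lists together had medians from −0.06 to 0.06.

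Past 1.0 in size were NCEH1, which hydrolyses cholesteryl ester, and ZMPSTE24, the protease that trims farnesylated proteins. NCEH1 was at −1.97 with miR-140-5p in T24 and at −1.30 with miR-532-5p in 786-O. ZMPSTE24 was at −1.09 with miR-532-5p and −1.02 with miR-532-3p in 786-O, a pair that may share its mock. Neither gene passed 0.5 on the bisamide arrays.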

How the data were processed

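The members and lists were chosen with earlier results of these data known. Per the file headers, the authors read 1 slide in 1 scan (Agilent Feature Extraction 11.5.1.1) into spot and background intensity in both channels on a linear scale. The deposited log10 ratio of Cy5 over Cy3, equal in the scanner files and in the series table, served as an alternative. Mock RNA was Cy3 and treated RNA Cy5 per the labels.

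Intensities were corrected by normexp (offset 50) and loess in limma 3.58.1 (R 4.3.3). Outlier spots (126 to 181 an array) were left out. A gene was read by its brightest probe, and 15442 to 19240 genes were well above background in both channels. No spot was saturated. Precision is limited by the number of arrays. Of 300 repeated probes, the spots had a median SD of 0.0389 to 0.0527 (log2). With 1 array a group, ratios were not tested: counts use 0.5, and 1.0 and 1.5 as alternatives. Mock channels were quantile normalized and fitted in limma over 4 lines (residual df 2, prior df 1.75), with Benjamini-Hochberg adjustment over all genes at 0.05. Lower bounds of ratios, and the normalized PC3 levels set beside bisamide, use channel values after Aquantile normalization. Lower bounds between mock lines use the quantile normalized mock channels. Levels from these normalizations are on different scales, such as those of INSIG1 in the PC3 mocks. Both fits were tested on simulated data. All members are named on every array beyond 0.5 in size, or else the 3 lowest and the 3 highest, and between lines the 6 called members of widest range are given in full. Other list genes are named past 1.0. Some genes of the pathway are not reported here. Members with several probes were LSS, HSD17B7, INSIG2, SREBF1, ACACA and ELOVL6.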

Additional observations from a re-analysis of the deposited data

How the results depend on the processing

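No paired analysis was possible because no group held more than 1 array and the labels give no number shared by groups. Of 218 values of the 25 called ratios under the alternatives, 8 changed sign, all under centring on the median of all probes: with bisamide at 24 h ACAT2 to 0.151, SQLE to 0.161 and EBP to 0.273, at 48 h ACAT2 to 0.0412, SQLE to 0.0836, CYP51A1 to 0.217 and FADS2 to 0.28, and FDFT1 with miR-140-5p to 0.00311. Under the same centring the members' medians became 0.446 and 0.335 with bisamide at 24 h and 48 h, 0.483 in C4-2, 0.676 with the miRNA in PC3, 0.159 with the 3p strand in 786-O, and 0.53 and 0.529 with the 5p and the 3p strand in T24. That centring leaves the dye trend over intensity in place, and all genes read moved with it. Members below −0.5 then numbered 0 on both bisamide arrays and in C4-2, and 1 each on the miR-532-3p and miR-140-5p arrays. Members above 0.5 numbered 11, 8, 11, 25, 6, 18 and 19 on the arrays in the same order of medians. The medians of all genes read on those arrays were 0.45, 0.44, 0.30, 0.42, 0.17, 0.35 and 0.45. The share of all genes beyond 0.5 was not counted under this centring, so these counts are not a result about the members.

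Members below −0.5 with bisamide were 7 at 24 h and 9 at 48 h under the scanner's ratio and the deposited table, and 9 at 48 h under normexp with offset 0 and under plain subtraction. They were 2 (INSIG1 and DHCR7) and 3 (with FASN) with the other lines subtracted. Against the mean of the PC3 mocks they were 9 at 24 h, with a members' median of −0.355, and 3 at 48 h, and 9 at 48 h with the miR-125b-1-3p array subtracted. Both of those comparisons were chosen after seeing the data. On the miRNA arrays, where the counts are small, members above 0.5 became 3 (2 without background correction) for the PC3 array, 1 for the 5p and 2 for the 3p array of 786-O and 3 for miR-140-5p under other background corrections or the scanner's ratio, and members below −0.5 with miR-140-3p became 2 (1 without background correction). The mean over probes left 1 above 0.5 with miR-199-3p. With the other lines subtracted, members above 0.5 were 2 for the PC3 array and 0 for the 3p arrays of 786-O and T24. Members below −0.5 were then 1 for the 5p and 0 for the 3p array of 786-O, and 1 for each T24 array. At a threshold of 1.0, 1 member was below with miR-140-5p, where 57 of 17624 genes lay, and 0 otherwise. At 1.5 the members' counts were 0 in both directions on every array, and 1 to 22 of all genes were lower and 1 to 13 higher. Under the other settings of this paragraph the share of all genes beyond 0.5 was not counted. Those counts are therefore not a result about the members.

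Between mock lines, with each mock channel taken as a sample 29 members were called (78.5% of all genes), 19 lower and 5 higher in 786-O (28.9% and 27.9% of genes) and 15 lower and 5 higher in T24 (24.5% and 26.8%). Scaling to the 75th percentile gave 19 lower in 786-O, 11 in C4-2 and 8 in T24 (27.3%, 26.7% and 15.6% of genes), and normexp with offset 0 gave 8 lower in T24 (16.3%). With no filter on dim genes 6 were lower in 786-O (7.22%). Leaving out each PC3 mock gave 13 to 21 members in the F-test (36.3% to 61.9% of genes). In 786-O 1 to 14 were lower (7.3% to 19% of genes) and 1 to 3 higher (9.88% to 19.7%). The 14 came without the mock of the 24 h array, where 8.42% of genes were lower, and the 1 came with 7.3%. In C4-2 4 to 6 were lower (13.8% to 23.4%) and 7 to 11 higher (17.3% to 25.8%). In T24 4 to 10 were lower (5.72% to 16.2%) and 2 to 3 higher (7.3% to 18.1%). Differences that changed sign did so under the 75th percentile: SC5D to 0.239 and ACLY to −0.0624 in 786-O, and SC5D to 0.251, SCAP to −0.513 and ELOVL6 to 0.00638 in C4-2. Unless given above, the cause of a change was not tested. SC5D and TM7SF2 in 786-O and ELOVL6 in C4-2 lay near background, which limits their ratios.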
